A study of Bos taurus with 30 samples.

Results

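The cervix 12 h after the onset of standing oestrus was compared with the cervix in the luteal phase, over all transcripts counted. Members were chosen by the stage in each library's labels, which gave 4 heifers for Oestrus+12h and 5 for Luteal, 9 of the 30 Limousin heifers of the series, with 1 RNA-seq library of polyadenylated RNA per heifer. All heifers, of both stages, had been synchronised with a vaginal controlled internal drug release (CIDR) device that held 1.94 g progesterone and stayed in place for 8 days, and with 0.5 mg of a prostaglandin F2α analogue given 1 day before the device came out. Oestrus+12h tissue was collected 12 h after oestrus began and Luteal tissue on day 7. For Oestrus+12h the treatment protocol counts 5 heifers where the sample labels count 4, and for Oestrus+48h 4 where they count 5. The sample labels were used, and whether 1 heifer carries the wrong one of these 2 labels was not tested. Neither ages nor hormone levels were used here, and stage rests on observed oestrus and on time.

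The cervix is a canal of folded, mucus-secreting epithelium in a wall of connective tissue and smooth muscle. Around oestrus, when oestrogen is high, its glands release thin, plentiful mucus and the wall softens, and in the luteal phase progesterone from the corpus luteum is linked to thick mucus and a closed canal. Comparing these stages asks which cervical transcripts differ between a time shortly after the oestrogen peak and a time under ovarian progesterone. The deposited tables name transcripts by Ensembl bovine IDs without gene names, and the gene table used here matched 0 of the IDs. No gene, pathway or cell type could therefore be named, the tissue label could not be checked against markers, and no sequence is shown.

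No transcript was shown to differ between the stages beyond the spread between heifers. Whole tissue was measured, so fewer cells of a type and less RNA per cell cannot be told apart in any level given here. Of 16940 transcripts tested with edgeR's quasi-likelihood test, 0 (0%) passed at an adjusted p under 0.05, and the smallest adjusted p was 1. An unadjusted p under 0.05 was found for 474 transcripts, which is 2.8% of those tested, where a test with no difference anywhere gives 5% on average. Of these, 298 had a lower fitted mean at Oestrus+12h (1.76%) and 176 a higher one (1.04%). Lower transcripts stayed in excess under other scalings, with 192 higher and 265 lower under size factors of the DESeq2 kind and 211 and 233 under upper-quartile factors. The direction of this excess turned with the method, to 119 higher and 90 lower with limma voom and 399 and 312 with voom quality weights. It also turned when single heifers were left out, to 126 higher and 106 lower without Luteal replicate 2, 142 and 140 without Luteal replicate 5, and 278 and 217 without Oestrus+12h replicate 4. The number of transcripts at an unadjusted p under 0.05 also depended on single heifers. It was 232 without Luteal replicate 2, 282 without Luteal replicate 5, 249 without Oestrus+12h replicate 1 and 935 without Luteal replicate 3, and the adjusted test called 0 in each of these fits.

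DESeq2 called 1 of 16931 transcripts (0.00591%), limma voom called 0 and voom with quality weights 0. The transcript called by DESeq2 had 2, 0, 0 and 1 counts in Oestrus+12h replicates 1 to 4 and no count in any Luteal heifer. Both stages lay at or under the floor of 3 counts, so no fold is given for it, and edgeR gave it an unadjusted p of 0.325 (adjusted p = 1). Its counts lay mainly in the earlier stages, with 647 over the 6 heifers at CIDR+12h and 194 over the 6 at CIDR+24h, of which 191 were in CIDR+24h replicate 4 alone and 3 in the rest. It falls outside the rule for named transcripts and was looked at only because of this call.

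The absence of calls came with a measurable limit on how large most differences could be. The median log2 fold change over all tested transcripts was -0.03, its median size without sign was 0.21, and the median standard error was 0.36. For 8715 transcripts (51.4%), the 95% interval of the log2 fold change lay within a 2-fold change in either direction, and for 14405 (85.0%) it lay within 4-fold. With fold changes and standard errors from limma voom, 8638 (51.0%) were bounded within 2-fold. These intervals are not adjusted for the number of transcripts.

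Precision varied with the level of a transcript, given as CPM, counts scaled to a common library size. Of the 769 transcripts with a mean under 1 CPM over the 9 heifers, 7 (0.910%) were bounded within 2-fold, and their median standard error was 0.85. Of the 5540 between 1 and 10 CPM, 1477 (26.7%) were, at a median standard error of 0.50. Of the 8824 between 10 and 100 CPM, 6122 (69.4%) were, at 0.29, so the middle of the range was the most tightly bounded. Above 100 CPM the share was lower again, 1109 of 1807 (61.4%), at a median standard error of 0.33. An unadjusted p under 0.05 was about as frequent in each class, from 2.47% under 1 CPM to 3.09% between 1 and 10 CPM. For the transcripts that were not bounded, a 2-fold difference was neither called nor excluded by its interval.

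**Figure D1:**
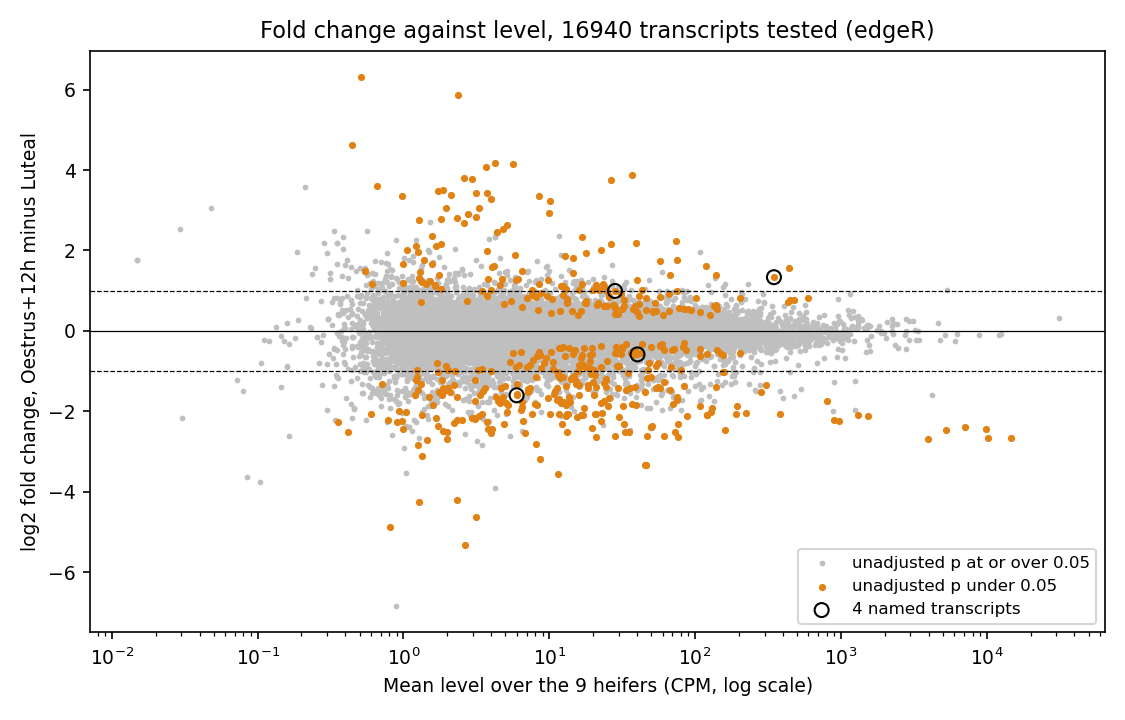
Log2 fold change of each of the 16940 tested transcripts (Oestrus+12h minus Luteal, vertical axis) against its mean level over the 9 heifers (CPM, log scale), with dashed lines at 2-fold. The 474 transcripts at an unadjusted p under 0.05 are orange, the 4 named transcripts are circled, and a small group of very abundant transcripts lies below the lower dashed line.

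Transcripts present in every heifer of one stage and in none of the other were rare and close to the detection limit. A count in all 4 Oestrus+12h heifers with none in the 5 Luteal heifers was found for 5 of 28054 IDs, with at most 3 counts in a heifer. The reverse was found for 2 IDs, also with at most 3 counts. The most abundant transcripts were largely shared, since 86 of the 100 with the highest mean at Oestrus+12h were also among the 100 highest at Luteal (86% of each list), and 883 of the 1000 highest (88.3%). Among the 10 highest, 5 were shared (50%), and none of the 10 highest at Oestrus+12h had an unadjusted p under 0.05.

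The levels of all heifers of 1 stage lay apart from those of the other in 120 transcripts (0.708% of those tested), 43 higher at Oestrus+12h (0.254%) and 77 lower (0.455%). Their differences were mostly modest. The median log2 fold change was 0.77 among the 43 and -0.57 among the 77, and 14 and 17 of them reached 2-fold. Of the 120, 27 higher and 35 lower transcripts also had an unadjusted p under 0.05, against 2.8% of all transcripts tested. The p and the lack of overlap rest on the levels of the same heifers, so their coming together is no evidence for a difference. How many transcripts would lie apart with no stage difference was not computed.

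The IDs given in full are the 2 with the smallest unadjusted p in each direction among transcripts with a mean of at least 5 CPM. Since that p chose them, their values describe the strongest candidates of this comparison and are no evidence for a difference. ENSBTAT00000016071 had the smallest unadjusted p of all transcripts tested. It was at 33.9, 50.8, 37.8 and 33.6 CPM in Oestrus+12h replicates 1 to 4, and at 17.5, 16.8, 18.9, 25.9 and 18.9 CPM in Luteal replicates 1 to 5. All 4 Oestrus+12h heifers lay above all 5 Luteal heifers. The means were 39.0 ± 8.1 (SD, n = 4) and 19.6 ± 3.65 CPM (SD, n = 5), a ratio of 1.99. The log2 fold change was 0.99 ± 0.269 (SE), with an edgeR unadjusted p of 0.00101 and an adjusted p of 1.

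ENSBTAT00000007787 was the more abundant candidate with a higher mean at Oestrus+12h. It was at 810, 757, 320 and 204 CPM in Oestrus+12h replicates 1 to 4, and at 295, 142, 173, 203 and 224 CPM in Luteal replicates 1 to 5. Oestrus+12h replicates 1 and 2 stood high, replicate 3 just above the highest Luteal heifer, and replicate 4 inside the Luteal range. The means were 523 ± 306 (SD, n = 4) and 207 ± 57.9 CPM (SD, n = 5), and the log2 fold change was 1.33 ± 0.375 (SE, edgeR adjusted p = 1). Without Oestrus+12h replicates 1 and 2 together, a setting chosen after seeing the data, it was 0.34.

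ENSBTAT00000003013 was a low-level transcript with a lower mean at Oestrus+12h. It was at 1.66, 3.53, 3.59 and 2.36 CPM in Oestrus+12h replicates 1 to 4, from 11 to 27 counts, and at 9.48, 13.4, 4.04, 4.75 and 11 CPM in Luteal replicates 1 to 5. The stages did not overlap, but Luteal replicates 3 and 4 lay close to the Oestrus+12h heifers and replicates 1, 2 and 5 well above. The means were 2.79 ± 0.939 (SD, n = 4) and 8.53 ± 4.03 CPM (SD, n = 5), 3.06 times higher at Luteal, with a log2 fold change of -1.60 ± 0.464 (SE, edgeR adjusted p = 1).

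ENSBTAT00000001519 differed little in size, with 27.4, 31.1, 41 and 26.6 CPM in Oestrus+12h replicates 1 to 4 and 67.8, 45.9, 42.3, 40.8 and 39.9 CPM in Luteal replicates 1 to 5. The stages overlapped, since Oestrus+12h replicate 3 lay above Luteal replicates 4 and 5, and Luteal replicate 1 was far above the rest. The means were 31.5 ± 6.6 (SD, n = 4) and 47.3 ± 11.6 CPM (SD, n = 5), with a log2 fold change of -0.59 ± 0.181 (SE, edgeR adjusted p = 1). In the fits with other settings, these 4 transcripts kept their direction in 83 of 83 values, and the smallest adjusted p was 0.827. These fits used all or most of the heifers that chose the 4, so the kept direction is no evidence for a difference.

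The levels in the other stages are given for the course around oestrus. Those heifers were not part of the contrast, but they shared the model's estimate of the spread, so they entered the choice through p. With only the 2 stages fitted, the unadjusted edgeR p was 0.00803 for ENSBTAT00000007787 and 0.0308 for ENSBTAT00000001519. In that fit it was 0.00048 for ENSBTAT00000016071 and 0.00412 for ENSBTAT00000003013 (adjusted p = 0.9997 for each of the 4). ENSBTAT00000016071 was at 30.8 ± 8.31 CPM at Oestrus (SD, n = 4), where 1 of the 4 heifers (42.5 CPM) lay in the Oestrus+12h range and the other 3 (24.5 to 31 CPM) below it, and at 20.4 ± 5.54 CPM at Oestrus+48h (n = 5), where all heifers lay below those of Oestrus+12h. Its means at CIDR+24h, 18.7 ± 6.04 CPM (n = 6), and CIDR+12h, 22.1 ± 6.5 CPM (n = 6), were close to the Luteal one, and their highest heifers, at 23.3 and 32.0 CPM, also lay below Oestrus+12h. Its order of means was thus Oestrus+12h, Oestrus, CIDR+12h, Oestrus+48h, Luteal and CIDR+24h, and the ranges of the last 4 overlapped one another. The range of Oestrus also overlapped those of CIDR+12h, Oestrus+48h and Luteal, but not that of CIDR+24h.

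ENSBTAT00000003013 had its lowest mean at Oestrus+12h and its highest at Luteal. It was at 4.39 ± 1.77 CPM at Oestrus (SD, n = 4), 4.68 ± 2.19 at Oestrus+48h (n = 5), 5.9 ± 1.65 at CIDR+24h (n = 6) and 6.05 ± 3.31 CPM at CIDR+12h (n = 6). The range of each of these 4 stages overlapped that of Oestrus+12h and that of Luteal. ENSBTAT00000001519 also had its lowest mean at Oestrus+12h. Its highest, at Luteal, rested on Luteal replicate 1, without which the Luteal mean was 42.2 ± 2.63 CPM (SD, n = 4), below that of CIDR+12h. It was at 33.3 ± 9.44 CPM at Oestrus, 36.7 ± 4.4 at CIDR+24h, 40.4 ± 3.03 at Oestrus+48h and 45.1 ± 4.16 CPM at CIDR+12h. ENSBTAT00000007787 was at 405 ± 227 CPM at Oestrus+48h, 368 ± 110 at Oestrus, 352 ± 97.9 at CIDR+24h and 248 ± 71.6 CPM at CIDR+12h, so its lowest mean was the Luteal one. No tested transcript had a correlation of log2 CPM above 0.9 over the 30 heifers with any of the 4, and the highest values lay from 0.718 to 0.804. These correlations share depth and heifers and are given as a description.

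**Figure D2:**
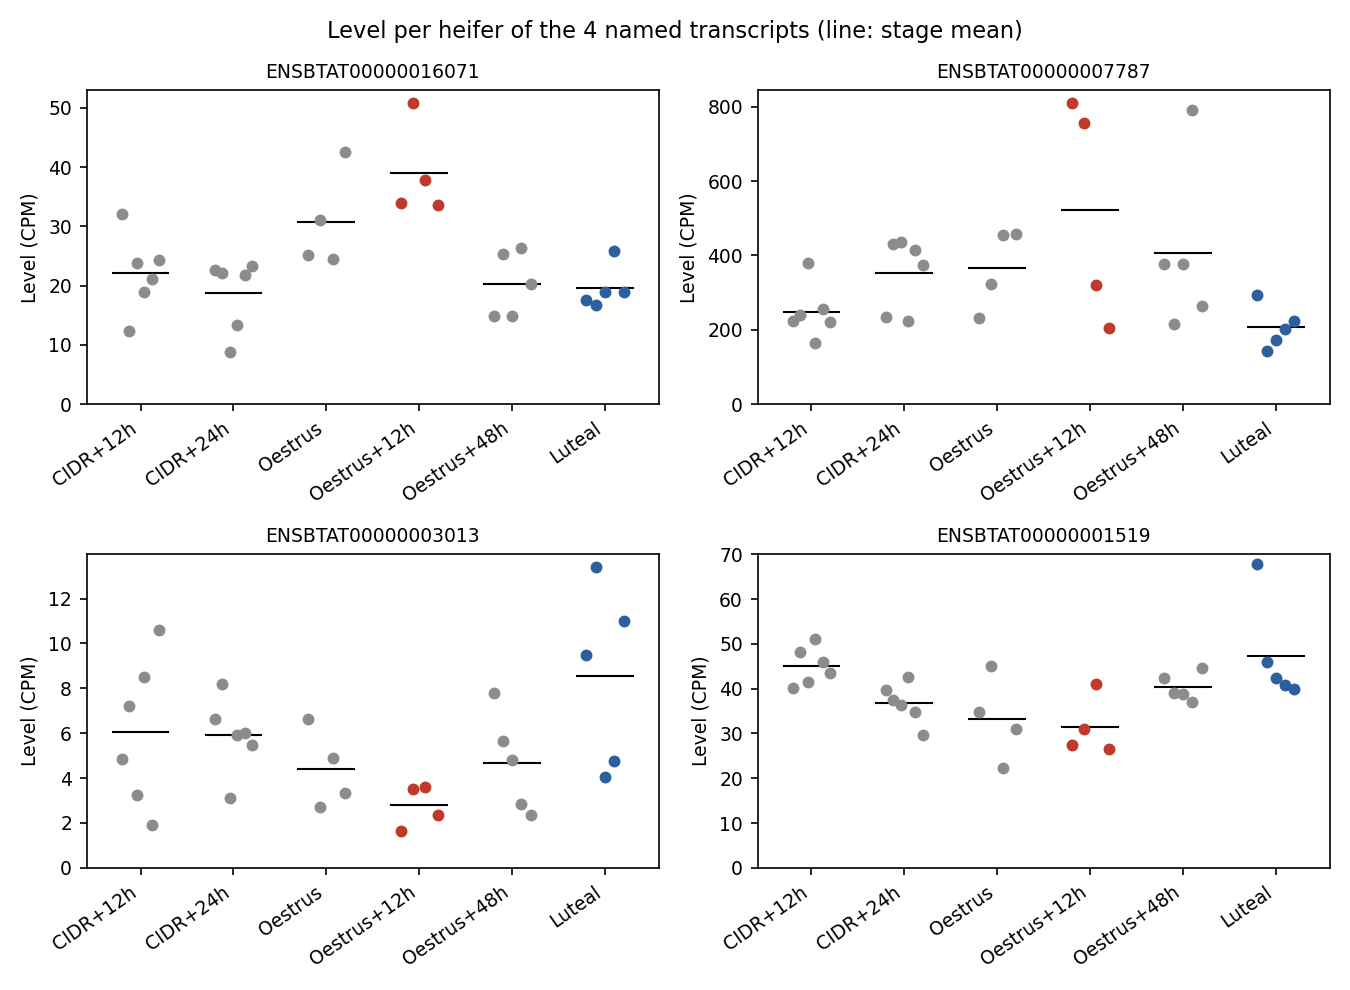
Level (CPM, linear axis from 0) of the 4 named transcripts in each of the 30 heifers, by stage, with a line at the stage mean, Oestrus+12h in red and Luteal in blue. For ENSBTAT00000016071 the red points (33.6 to 50.8 CPM) lie above all blue points (16.8 to 25.9 CPM), while for ENSBTAT00000007787 2 red points lie high and 1 lies among the blue points.

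Over the whole transcriptome, closer likeness within a stage than across the stages was not detected. Stage held 10.7% of the squared distances between the 9 heifers on log2 CPM, against a mean of 12.5% over all 126 ways of dividing them 4 to 5 (one-sided exact permutation p = 0.571). A pair of Oestrus+12h heifers differed at least 2-fold in a median of 2004 of the 12872 transcripts at or above 5 CPM (1421 to 2790 over 6 pairs). Luteal pairs differed in a median of 2211 (841 to 4080 over 10 pairs), and pairs across the stages in 2090 at the median (569 to 3616 over 20 pairs). Luteal was thus the stage with both the closest and the most distant pair of its own. Luteal replicates 2 and 5 differed in 841 transcripts, and Luteal replicates 2 and 3 in 4080. Spearman's rho over all tested transcripts had a median of 0.929 within Oestrus+12h, 0.924 within Luteal and 0.923 across the stages, which are correlations across transcripts, not independent replicates.

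**Figure D3:**
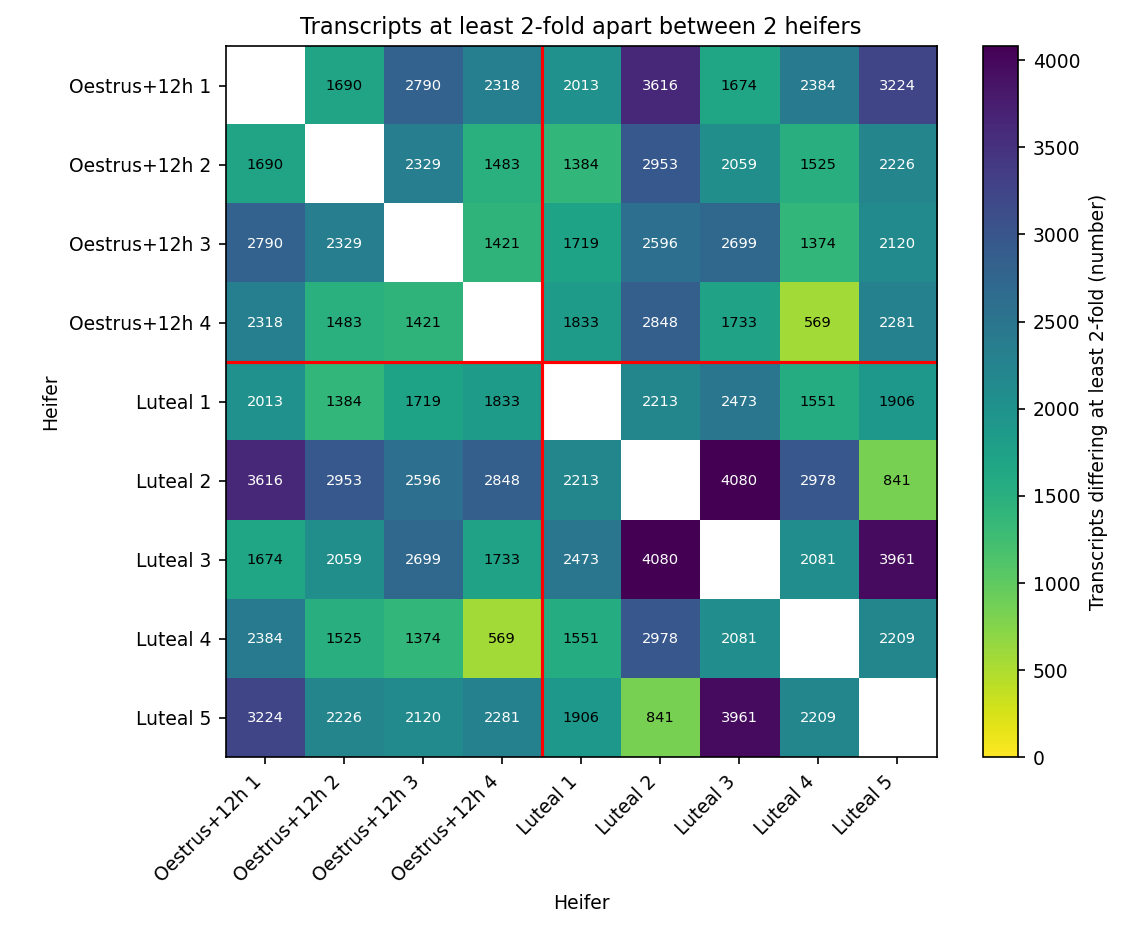
Number of the 12872 transcripts at or above 5 CPM that differ at least 2-fold between each pair of the 9 heifers (colour and printed number), with red lines between the stages. The smallest number, 569, joins Luteal replicate 4 and Oestrus+12h replicate 4 across the stages, and the largest, 4080, lies within Luteal.

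In a principal component analysis of log2 CPM, the leading component took up 35.9% of the variance. Luteal heifers spanned it from -75.7 (replicate 3) to 85.1 (replicate 2), and the Oestrus+12h heifers, from -60.0 to 10.3, lay inside that span. On the second component, with 16.9%, the Oestrus+12h heifers spanned -51.6 to 59.7 and the Luteal heifers, from -44.5 to 29.6, lay inside. Neither component therefore separated the stages.

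**Figure D4:**
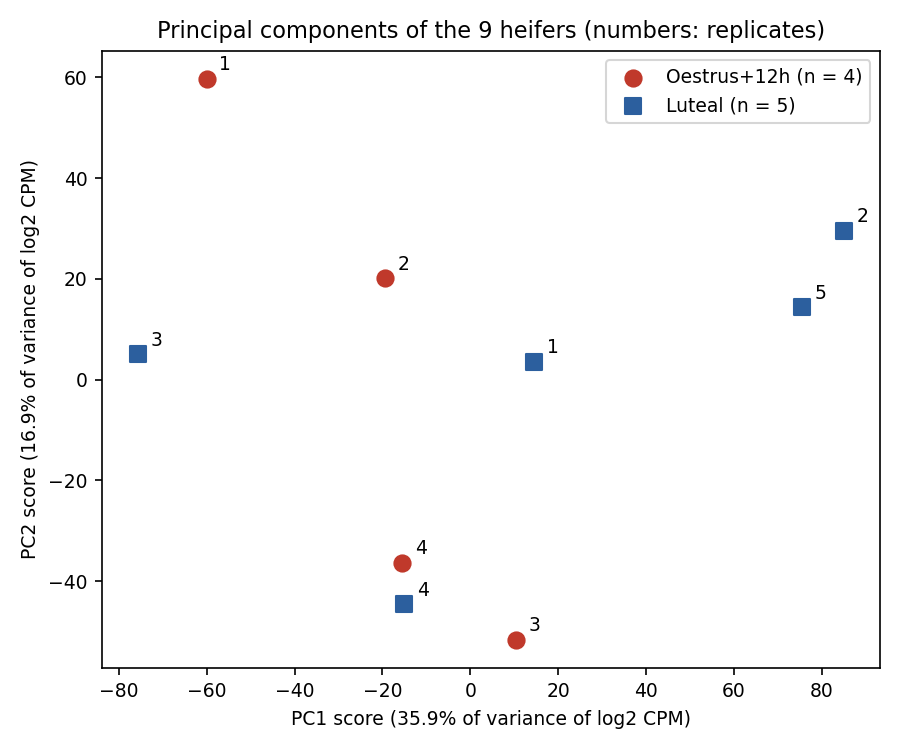
Scores of the 9 heifers on the first 2 principal components of log2 CPM (arbitrary units, share of variance on each axis), Oestrus+12h as red circles and Luteal as blue squares, numbered by replicate. The stages interleave, with Luteal replicates 2 and 5 together at the right (85.1 and 75.6) and Luteal replicate 3 at the far left (-75.7).

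Transcripts with a large difference between stage means were described by the heifer that had the highest level. Among the 12872 transcripts at or above 5 CPM, 414 (3.22%) had a fitted mean at least 2-fold lower at Oestrus+12h and 109 (0.847%) at least 2-fold higher. In 361 of the 414, the highest Luteal heifer was replicate 2 (200 transcripts) or replicate 5 (161), and in 94 of the 109 the highest Oestrus+12h heifer was replicate 1 (60) or replicate 2 (34). A single heifer held over 50% of its stage's summed CPM in 64 of the 109 (58.7%) and in 93 of the 414 (22.5%). The stages did not overlap in 4 of the 109 (3.67%) and 3 of the 414 (0.725%), against 86 of the 12872 (0.668%). How often the same heifers were highest, or held over 50%, among all 12872 transcripts was not counted. These transcripts were chosen by their difference and the heifers named after seeing the counts, so nothing is read from these shares.

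With medians over heifers in place of fitted means (pseudocount 0.5 CPM), 174 transcripts were at least 2-fold higher and 295 lower, and 51 and 192 were found both ways. Single heifers moved these numbers. The 414 became 237 without Luteal replicate 2, 258 without Luteal replicate 5 and 127 without both. The 109 became 285 without Luteal replicate 3, 177 without Luteal replicate 1, and 202 and 184 when Oestrus+12h replicates 3 and 4 were left out in turn. Leaving out Oestrus+12h replicates 1 or 2 moved it less, to 90 and 105, and 102 were found with both left out. Whether these were the same transcripts was not counted. Fitting only the 2 stages gave 361 lower and 123 higher.

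The 414 transcripts with lower means at Oestrus+12h were followed in each heifer as the median of log2 CPM minus the median of the 9 heifers. This median was 0.74, 1.95, -0.53, -0.17 and 1.86 in Luteal replicates 1 to 5, and -0.66, 0.00, -0.23 and -0.29 in Oestrus+12h replicates 1 to 4. Luteal replicates 3 and 4 lay in the range of the Oestrus+12h heifers, and replicates 1, 2 and 5 above it. The 414 were chosen by the stage means of these 9 heifers, so this order among the 9 only describes the choice. In the 21 heifers of other stages, which were in the model but not in the contrast, the same median ranged from -0.89 to 2.06. It was at least 1 in 8 of them, namely CIDR+12h replicates 2 (1.95) and 4 (1.80), CIDR+24h replicates 1 (1.48), 2 (1.64), 4 (2.06) and 6 (1.51), Oestrus replicate 1 (1.06) and Oestrus+48h replicate 5 (1.06). It was below 0 in 7 of the 21, from CIDR+12h, CIDR+24h, Oestrus and Oestrus+48h. High and low heifers for these transcripts therefore occurred side by side within each of those stages.

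The 109 transcripts with higher means at Oestrus+12h had medians of 1.78, 1.17, -0.05 and 0.01 in Oestrus+12h replicates 1 to 4. In Luteal replicates 1 to 5 they were -0.04, -0.69, -0.06, 0.00 and -0.43. Oestrus+12h replicates 1 and 2 stood high, and replicates 3 and 4 lay at the Luteal level. The 109 were also chosen by the stage means of these heifers, so this order only describes the choice. Among the 21 other heifers, 4 reached at least 1, Oestrus replicates 3 (1.46) and 4 (1.49) and CIDR+24h replicates 2 (1.31) and 6 (1.21), and 11 lay below 0. CIDR+24h replicates 2 and 6 were high for the 109 as well as for the 414.

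**Figure D5:**
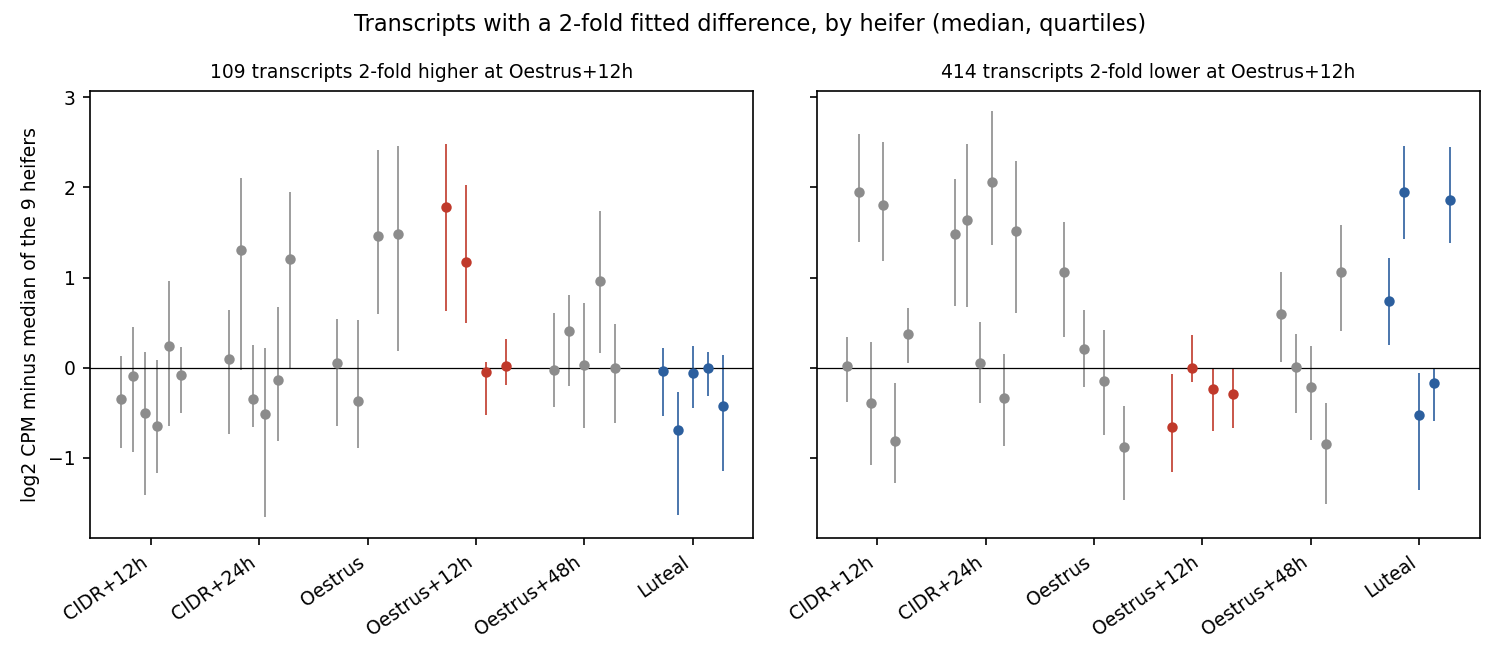
Median (point) and quartiles (bar) of log2 CPM minus the median of the 9 heifers, for the 109 transcripts at least 2-fold higher and the 414 at least 2-fold lower at Oestrus+12h, in each of the 30 heifers by stage. Red and blue points belong to the comparison that chose the transcripts; among the grey points of the other stages, the 414 range from -0.89 to 2.06, high and low within the same stage.

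A small group of very abundant transcripts was part of the 414. Of 96 transcripts with a mean of at least 1000 CPM, 11 had a fitted mean at least 2-fold lower at Oestrus+12h and 1 at least 2-fold higher. The log2 fold changes of the 11 lay between -2.69 and -1.25, with standard errors from 0.708 to 1.24, and their Luteal means between 1684 and 23337 CPM. None of the 11 had stages that did not overlap (0.708% of all transcripts tested), and 8 had an unadjusted p under 0.05 (2.66% of the transcripts over 100 CPM). The 11 were chosen by their difference, so these counts only describe them. Together they took 6.40%, 16.8%, 0.954%, 1.89% and 15.7% of all counts in Luteal replicates 1 to 5. In Oestrus+12h replicates 1 to 4 they took 1.53%, 2.69%, 1.41% and 1.88%. The Luteal heifers thus included the lowest as well as the highest share of the 9.

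In the other stages the 11 took from 1.07% to 18.6% of counts at CIDR+12h, 1.81% to 19.6% at CIDR+24h, 1.17% to 7.25% at Oestrus and 0.897% to 6.65% at Oestrus+48h. They moved together, with a median correlation of log2 CPM of 0.969 between pairs over the 30 heifers, a description of transcripts that share libraries and were chosen for 1 direction.

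Depth differed between the stages. Library totals were 5434853, 6823451, 7758073 and 7897702 counts in Oestrus+12h replicates 1 to 4 and from 7940251 to 9061166 in the 5 Luteal heifers, so every Oestrus+12h library was smaller than every Luteal one. The means were 6978520 ± 1134248 (SD, n = 4) and 8410614 ± 498808 (SD, n = 5), with a two-sided exact permutation p of 0.00794, the smallest that these groups allow (adjusted p = 0.0238 over 3 library measures). The part of depth in the results was not tested. The number of transcripts with a count was 18865 ± 193 (SD, n = 4) at Oestrus+12h and 18943 ± 221 (n = 5) at Luteal (exact permutation p = 0.611, adjusted p = 0.611). The 10 most abundant transcripts of a library held 10.9% ± 2.15 (SD, n = 4) and 14.97% ± 4.07 (n = 5) of its counts (exact permutation p = 0.143, adjusted p = 0.214). The highest shares were those of Luteal replicates 2 (19.3%) and 5 (19.2%), the same heifers in which the 11 abundant transcripts were highest. Both measures can count the same transcripts, so they are not separate observations.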

How the data were processed

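Per the deposited tables, the values are raw read counts per Ensembl transcript ID, 1 library per heifer. CASAVA 1.0 is named in the submitters' processing notes; aligner, counting program, genome build, annotation and strand setting are not given in the sources used here. Reads shared by isoforms, copies or antisense partners could not be told apart. Counts of 48 tested IDs equalled those of another ID.

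The contrast came from 1 edgeR 4.0.16 quasi-likelihood model over all 30 heifers and 6 stages (R 4.3.3; TMM factors, filterByExpr with minimum count 10 and total 15, robust, Benjamini-Hochberg adjustment over 16940 transcripts, threshold 0.05). CPM used TMM factors and log2 CPM a prior count of 2. Standard errors were the fold change divided by the root of F. DESeq2 1.42.0, limma 3.58.1 and sva 3.50.0 were alternatives. The model was tested on simulated data. Replicates were separate heifers numbered in accession order. No 2 libraries of either stage agreed within sampling noise (smallest chi-square per degree of freedom 31.0).

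Named IDs were the 2 higher and 2 lower with the smallest p and a mean of at least 5 CPM. Gene and marker lists could not be applied. Members, rules and lists were chosen with earlier results of these data known.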

Additional observations from a re-analysis of the deposited data

Results flagged for a closer look

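Of 30 groups of heifers examined, 3 held a value far from the rest of its stage by Dixon's ratio, the gap to the nearest value divided by the range. The cutoff stands for about 1 in 20 by chance, for independent groups. All 3 values belong to named transcripts, which were chosen by p in these data, and the groups share heifers. The 3 of 30 can therefore not be set against 1 in 20, and nothing is read from this count. Luteal replicate 4 had 25.9 CPM of ENSBTAT00000016071, where the other 4 Luteal heifers had 16.8 to 18.9 CPM, and was thus the Luteal heifer nearest to the Oestrus+12h range. Luteal replicate 1 had 67.8 CPM of ENSBTAT00000001519, where the other 4 had 39.9 to 45.9 CPM. Outside the comparison, Oestrus+48h replicate 4 had 792 CPM of ENSBTAT00000007787, against 217 to 377 CPM in the other heifers of that stage, a level close to those of Oestrus+12h replicates 1 and 2.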

How the results depend on the processing

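The count of 0 called transcripts was 1 with DESeq2 and 0 under the 20 other settings. The 474 transcripts at an unadjusted p under 0.05 were 209 with limma voom, 744 with 1 surrogate variable and from 232 to 935 when 1 heifer was left out. The 414 transcripts at least 2-fold lower were 239 with limma voom and from 237 to 549 with 1 heifer left out, and the 109 at least 2-fold higher were 89 to 285. In settings chosen after seeing the data, leaving out Luteal replicates 2 and 5 together gave 237 at an unadjusted p under 0.05 and 127 at least 2-fold lower, and leaving out Oestrus+12h replicates 1 and 2 together gave 185 and 648. Stage's share of distances was 10.6% to 10.9% under 3 other measures and 9.12% to 18.7% with 1 heifer left out (exact permutation p from 0.2 to 0.971). With fewer heifers the mean share over all splits is larger than the 12.5% of the full comparison, so the shares with 1 heifer left out cannot be set against 12.5%. The difference in library totals was from -1738488 to -917538 counts with 1 heifer left out (adjusted exact permutation p from 0.0536 to 0.107), where the smallest raw p was 0.0179 for 3 against 5 heifers and 0.0286 for 4 against 4. ENSBTAT00000003013 was not tested with the filter of 10 CPM in 4 heifers. No paired analysis was possible because the labels give no number shared between heifers of different stages. Gene lists could not be recomputed for lack of names.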

Other observations

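Across the whole series, most of the pairs of heifers with the fewest transcripts at least 2-fold apart were of different stages, as were most pairs of any distance. Of the 10 closest of 435 pairs, 2 were of the same stage, and 62 of all pairs were. The second closest pair, 473 transcripts apart, joined Oestrus+12h replicate 1 with Oestrus replicate 3, and Oestrus+12h replicate 1 was also close to Oestrus replicate 4 (609 transcripts). Luteal replicate 4 and Oestrus+12h replicate 4 were the third closest pair (569 transcripts), and both were close to Oestrus+48h replicate 2 (583 and 611). The counts of Luteal replicate 4 and Oestrus+12h replicate 4 still differed beyond sampling noise, with a chi-square per degree of freedom of 27.3. The median over all pairs of the same stage was 2366 transcripts, against 2577 for pairs of different stages. These pairs share heifers, so no test is given.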
